A study of Solanum lycopersicum with 9 samples.

Results

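The 6 tomato genes described here are MADS-box genes of the floral transition, the 4 members of the FRUITFULL clade (FUL1, FUL2, MBP10 and MBP20) and the pair STM3 and TM3. They were chosen by locus ID, as Solyc06g069430 (FUL1), Solyc03g114830 (FUL2), Solyc02g065730 (MBP10), Solyc02g089210 (MBP20), Solyc01g092950 (STM3) and Solyc01g093965 (TM3), and make up 6 of the 27476 loci in the table. STM3 has a first gene model (Solyc01g092950.3) and a second (Solyc01g092950.3.1), so the 6 genes gave 7 of 33989 gene models, all of which passed the filter on low values in every comparison. The libraries came from 3 sets of 3, and their read totals are not known, since the values are FPKM, fragments scaled to gene model length and to library total. WRKY-B-GFP plants (libraries OE1, OE30 and OE9) carry the transcription factor gene WRKY-B fused to GFP under the 35S promoter, which is active in most plant tissues, and are labelled as flower of the cultivar Compound raceme. CK2, a control set, is labelled as bud of Compound raceme and CK1, the other control set, as bud of monomaker, and neither label names a transgene. The study describes instead axillary buds of transgenic and wild-type Ailsa Craig plants, pooled within each replicate, and that conflict is left unsettled here. Both tissue and transgene separate WRKY-B-GFP from the controls if the labels hold, so the effect of the transgene and that of the tissue cannot be told apart. By the labels, cultivar separates WRKY-B-GFP from CK1 as well, so its effect cannot be told apart there either. Cultivar also separates CK2 from CK1. The labels do not say whether the libraries of a set came from separate plants or, for WRKY-B-GFP, from separate transgenic lines, so the tests measure only the spread between these libraries. In such bulk samples, more cells of a type and more RNA per cell cannot be told apart either.

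FRUITFULL-clade proteins are MADS-domain transcription factors that act when a shoot meristem turns from making leaves to making flowers. In tomato, FUL2 and MBP20 promote flowering and limit branching of the inflorescence, FUL1 and FUL2 also act together in fruit ripening, and MBP10 is thought to have lost much of its function. TM3 and STM3 belong to the SOC1 group of MADS-box genes, named after a flowering activator of Arabidopsis, and lie close to each other on 1 chromosome. STM3 is known to vary in copy number between tomato accessions and to promote branching of the inflorescence.

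Of the 6 genes, 5 were higher in WRKY-B-GFP than in CK2, and FUL2, the most abundant member in both control sets, did not pass the test. Of the 7 gene models, 6 passed both thresholds against CK2 (at least 2-fold, with a limma-trend p under 0.05 after Benjamini-Hochberg adjustment), all 6 of them higher, where 25.8% of all gene models tested were called higher, 23.2% lower and 49.0% in either direction. Against CK1, 5 of the 7 passed, all higher, where 17.5% of all gene models tested were called higher, 21.8% lower and 39.2% in either direction. In both comparisons the WRKY-B-GFP libraries of 6 gene models were all above the control libraries. Over all gene models tested the libraries did not overlap in 75.0% against CK2 (41.9% higher and 33.1% lower) and in 71.6% against CK1 (35.9% higher and 35.7% lower), so that separation alone was common. The median log2 fold change of the 7 gene models was 2.64 against CK2, beside 0.17 over all gene models tested, and 2.04 against CK1, beside 0.01. Both comparisons use the same WRKY-B-GFP libraries. In CK2, MBP10 lay below the 0.5 FPKM minimum in all 3 libraries and STM3 (second gene model) in 2 of them, so both entered that comparison through their WRKY-B-GFP values. The median against CK2 is the value of MBP10 itself. These counts and medians over the members are therefore a description.

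**Figure D1:**
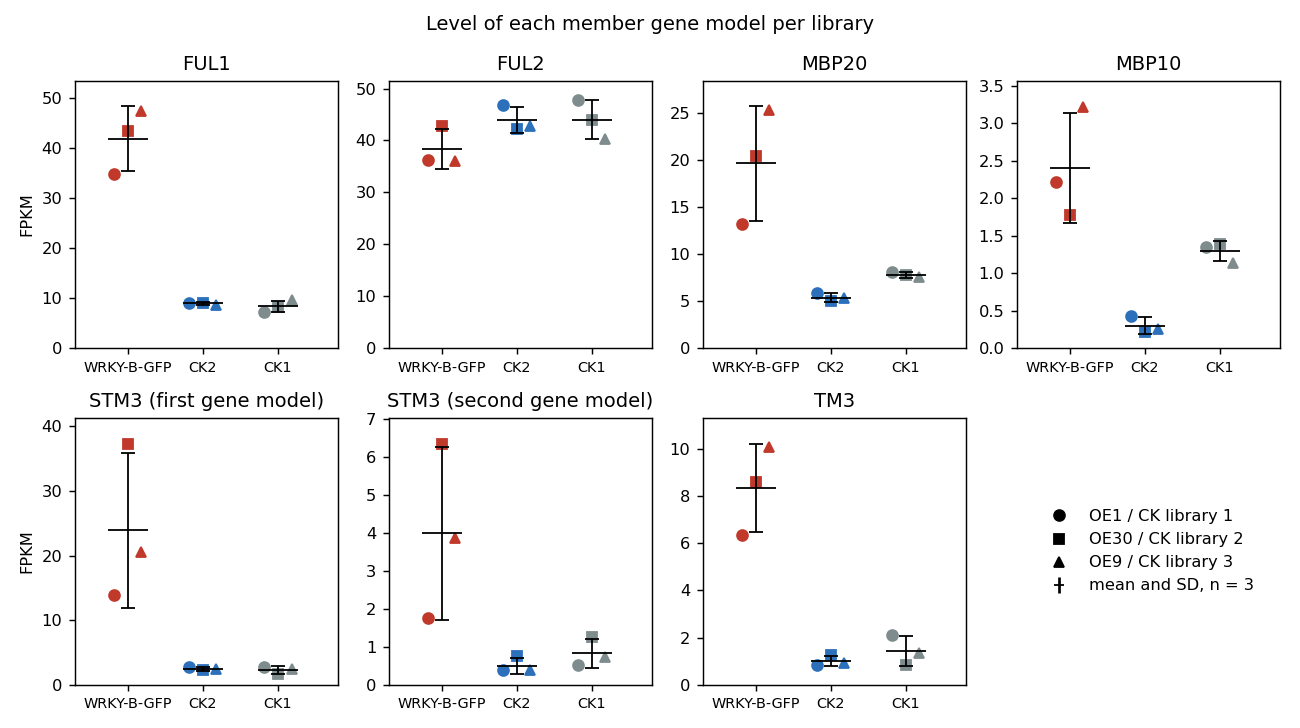
Level of each of the 7 member gene models in FPKM (linear axes from 0) in the 3 WRKY-B-GFP, 3 CK2 and 3 CK1 libraries. Points are libraries, and bars give the mean and SD (n = 3). The WRKY-B-GFP libraries lie above every control library for all gene models but FUL2, whose sets overlap.

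FUL1, which was first known as TDR4 and is most abundant in ripening fruit, was at 34.8, 43.3 and 47.4 FPKM in OE1, OE30 and OE9. In CK2 it was at 9.04, 9.11 and 8.61 FPKM, and in CK1 at 7.30, 8.21 and 9.54 FPKM. The lowest WRKY-B-GFP library was thus far above the highest control library, and the control sets overlapped each other. The mean was 41.8 ± 6.46 FPKM in WRKY-B-GFP, 8.92 ± 0.271 FPKM in CK2 and 8.35 ± 1.13 FPKM in CK1 (SD, n = 3 each). FUL1 rose by 2.21 (log2) against CK2 (limma-trend adjusted p = 2.64e-05, SE, the standard error, 0.13) and by 2.31 against CK1 (limma-trend adjusted p = 8.47e-05, SE 0.16). These are fold changes of mean FPKM of 4.69 and 5.01. Of all gene models tested, 6.68% had a higher log2 fold change against CK2 and 3.25% against CK1. Between CK2 and CK1, FUL1 differed by 0.10 (95% interval −0.14 to 0.35).

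FUL2, also called MBP7, is the closest relative of FUL1 and is active earlier in carpel and fruit development. It was at 36.3, 42.8 and 36.1 FPKM in OE1, OE30 and OE9, against 46.8, 42.2 and 42.9 FPKM in CK2 and 47.9, 44.0 and 40.3 FPKM in CK1. OE30 lay within the range of both control sets, while OE1 and OE9 lay below every control library. The mean was 38.4 ± 3.81 FPKM in WRKY-B-GFP, 44.0 ± 2.50 FPKM in CK2 and 44.0 ± 3.80 FPKM in CK1 (SD, n = 3 each). The log2 fold change was −0.20 against CK2 (95% interval −0.44 to 0.05, adjusted p = 0.127 from limma-trend) and −0.20 against CK1 (95% interval −0.46 to 0.07, adjusted p = 0.158 from limma-trend), so both intervals leave out a change of 2-fold. Only 10.6% of all gene models tested had a smaller log2 change in size against CK2. Median-ratio scaling of the libraries moved the median of all gene models from 0.17 to −0.15 against CK2. With it FUL2 was at −0.51 against CK2, with an adjusted p of 0.00794 from limma-trend. Without OE30 it was at −0.28 against each control set, with adjusted p-values of 0.0186 and 0.0353 from limma-trend. Each of these values is under the 2-fold threshold. Between CK2 and CK1 FUL2 was at −0.00, and at 0.22 with median-ratio scaling (adjusted p = 0.0280 from limma-trend). FUL1 was at 0.32 between them with that scaling (adjusted p = 0.0272 from limma-trend), also under the 2-fold threshold. The other members kept their calls under that scaling.

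MBP20 is a member of the clade that acts with FUL2 in the floral transition. Its single gene model lies on chromosome 2 of build SL3.0, from 51726000 to 51731031 on the plus strand. MBP20 was at 13.1, 20.4 and 25.3 FPKM in OE1, OE30 and OE9, against 5.86, 4.96 and 5.28 FPKM in CK2 and 8.09, 7.73 and 7.50 FPKM in CK1. No pair of sets overlapped, with WRKY-B-GFP the highest and CK2 the lowest. MBP20 rose by 1.80 (log2) against CK2 (limma-trend adjusted p = 0.000873, SE 0.25) and by 1.27 against CK1 (limma-trend adjusted p = 0.00419, SE 0.24). The fold changes of mean FPKM were 3.65 and 2.52. Between CK2 and CK1 the log2 fold change was −0.53 (95% interval −0.73 to −0.33, adjusted p = 0.00121 from limma-trend), below the 2-fold threshold. The median over all gene models tested was −0.23 there, and 32.7% had a lower log2 fold change than MBP20. With median-ratio scaling MBP20 was at −0.31. With all 9 libraries in 1 fit its adjusted p was 0.0665 from limma-trend. The end of this gene model overlaps by 319 bases with Solyc02g089220.3.1 on the minus strand, and the library protocol names no step that marks the strand, so reads from the overlap cannot be told apart. That neighbour was at 11.2 ± 1.95 FPKM in WRKY-B-GFP, 11.7 ± 1.45 FPKM in CK2 and 10.3 ± 1.68 FPKM in CK1 (SD, n = 3 each), a log2 fold change of −0.07 against CK2 and 0.12 against CK1.

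MBP10 had the lowest mean of the 6 genes in every set. It is the member thought to have the least function. It was at 2.21, 1.78 and 3.21 FPKM in OE1, OE30 and OE9, against 0.43, 0.21 and 0.26 FPKM in CK2 and 1.35, 1.39 and 1.14 FPKM in CK1. The 3 sets were separate from each other, with CK2 far below the others. The log2 fold change of MBP10 was 2.64 against CK2 (SE 0.32), given as a description, since with all CK2 libraries under 0.5 FPKM it was tested only through its WRKY-B-GFP values. Against CK1 the log2 fold change was 0.81 (95% interval 0.17 to 1.44, adjusted p = 0.0351 from limma-trend), which missed the 2-fold threshold. Between CK2 and CK1 the log2 fold change of MBP10 was −1.83 (SE 0.26). It was the 1 member past both thresholds there, but it entered that comparison only through CK1, where it was higher, so this too is a description, in a comparison that called 14.0% of all gene models tested lower, 13.0% higher and 27.0% in either direction, and in which the libraries of 74.0% did not overlap (47.4% lower and 26.6% higher). The size of both changes rests on values near the added 0.1 FPKM. With 1 FPKM added instead, they were 1.37 against CK2 and −0.82 between CK2 and CK1, the second of which no longer reached 2-fold.

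**Figure D2:**
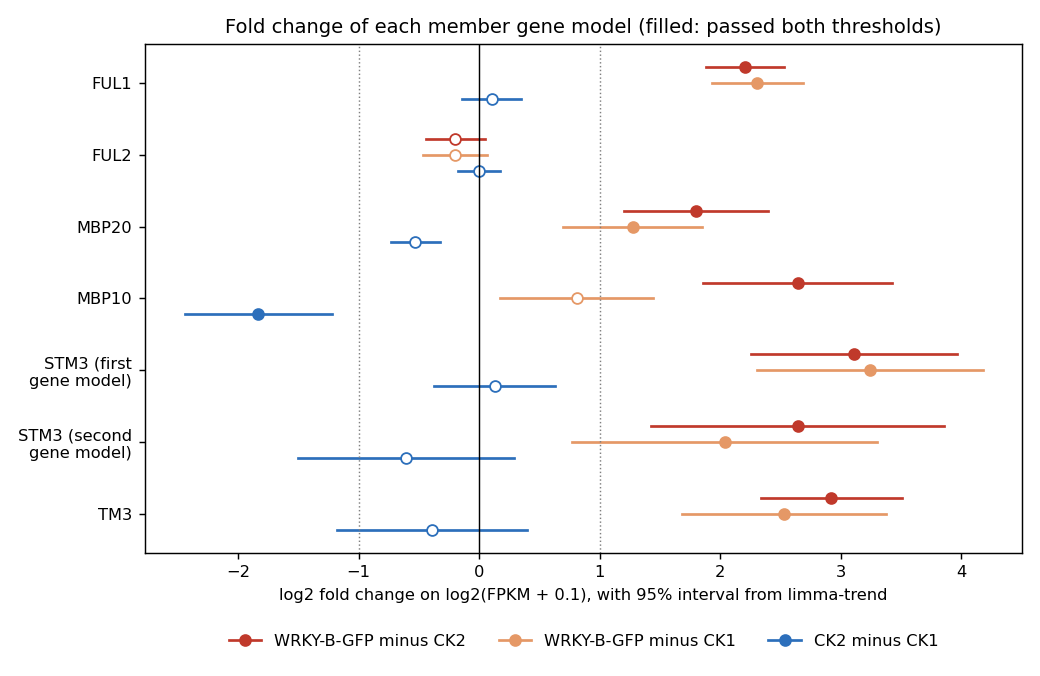
Log2 fold change of each member gene model on log2(FPKM + 0.1), with its 95% interval from limma-trend, for WRKY-B-GFP minus CK2, WRKY-B-GFP minus CK1 and CK2 minus CK1. Filled points passed both thresholds and dotted lines mark a 2-fold change. FUL2 lies near 0 in all 3 comparisons, and MBP10, which entered that comparison only through CK1, is the 1 member with a filled point between the control sets.

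The STM3 values of WRKY-B-GFP all lay above those of both control sets. Its first gene model was at 14.0, 37.2 and 20.5 FPKM in OE1, OE30 and OE9, against 2.76, 2.26 and 2.39 FPKM in CK2 and 2.81, 1.64 and 2.43 FPKM in CK1. OE30 stood above the other two WRKY-B-GFP libraries, and the control sets overlapped. STM3 (first gene model) rose by 3.11 (log2) against CK2 (limma-trend adjusted p = 0.000380, SE 0.35) and by 3.24 against CK1 (limma-trend adjusted p = 0.000666, SE 0.39). Only 2.36% of all gene models tested had a higher log2 fold change against CK2, and 1.12% against CK1. Without OE30 the rise was 2.73 against CK2 and 2.86 against CK1, beside 2.89 and 2.49 for TM3 without that library.

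The second gene model of STM3 is placed by build SL3.0 on chromosome 1, bases 85371034 to 85373317 on the plus strand. It was at 1.77, 6.33 and 3.86 FPKM in OE1, OE30 and OE9, against 0.38, 0.75 and 0.38 FPKM in CK2 and 0.51, 1.25 and 0.74 FPKM in CK1. The log2 fold change was 2.64 against CK2 (SE 0.50), a description for the same reason as for MBP10, and the second gene model rose by 2.04 (log2) against CK1 (limma-trend adjusted p = 0.0146, SE 0.52). Of the summed FPKM of the locus, the second gene model made up 13.9% ± 2.37 in WRKY-B-GFP, 16.9% ± 6.98 in CK2 and 27.3% ± 14.4 in CK1 (SD, n = 3 each). No difference in these shares was detected in an exact two-sided permutation test (p = 0.7 against CK2 and p = 0.2 against CK1, where 3 libraries against 3 cannot go below 0.1). Summed over both gene models, the STM3 locus was at 27.9 ± 14.2 FPKM in WRKY-B-GFP, 2.97 ± 0.188 FPKM in CK2 and 3.13 ± 0.218 FPKM in CK1 (SD, n = 3 each).

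TM3 rose beside STM3. It was at 6.35, 8.60 and 10.1 FPKM in OE1, OE30 and OE9, against 0.85, 1.25 and 0.92 FPKM in CK2 and 2.10, 0.84 and 1.33 FPKM in CK1. The lowest WRKY-B-GFP library was well above the highest control library, CK1_1. The log2 fold change was 2.92 against CK2 (limma-trend adjusted p = 0.000100, SE 0.24) and 2.53 against CK1 (limma-trend adjusted p = 0.00121, SE 0.35). STM3 and TM3 are related in sequence, so reads that fit both could have been divided between them by the authors' counting, which makes the level of each uncertain. The log2 ratio of the summed STM3 locus over TM3 within a library was 1.63 ± 0.60 in WRKY-B-GFP, 1.49 ± 0.28 in CK2 and 1.17 ± 0.52 in CK1 (SD, n = 3 each). No difference between sets in this ratio was detected (exact two-sided permutation p = 0.8 for WRKY-B-GFP and CK2, 0.4 for WRKY-B-GFP and CK1, and 0.4 between the control sets). OE30 had the highest ratio, 2.33, and CK1_1 the lowest, 0.64.

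FUL1 and MBP20 took a larger part of the FRUITFULL clade in WRKY-B-GFP than in either control set, and FUL2 a smaller one. FUL1 made up 40.9% ± 1.30 of the summed FPKM of the 4 genes in WRKY-B-GFP, 15.3% ± 0.801 in CK2 and 13.7% ± 2.52 in CK1 (SD, n = 3 each). FUL2 made up 37.9% ± 5.09 in WRKY-B-GFP, 75.1% ± 0.317 in CK2 and 71.6% ± 2.60 in CK1 (SD, n = 3 each). MBP20 made up 18.9% ± 3.68 in WRKY-B-GFP, 9.16% ± 0.337 in CK2 and 12.7% ± 0.158 in CK1, and MBP10 2.36% ± 0.635, 0.507% ± 0.166 and 2.10% ± 0.160 in the same order (SD, n = 3 each). For FUL1, FUL2 and MBP20 the shares of WRKY-B-GFP and of each control set did not overlap, with an exact two-sided permutation p = 0.1, the smallest that 3 libraries against 3 allow, and for MBP10 p was 0.1 against CK2 and 0.6 against CK1 in that exact test. Between CK2 and CK1 the exact permutation p was also 0.1 for the shares of FUL2, MBP20 and MBP10, and 0.5 for that of FUL1. The summed level of the clade was 86.4, 108.3 and 112.0 FPKM in OE1, OE30 and OE9, against 56.5 to 62.2 FPKM in CK2 and 58.5 to 64.6 FPKM in CK1. Its mean was 1.75 times that of CK2 and 1.66 times that of CK1 (exact permutation p = 0.1 for each).

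**Figure D3:**
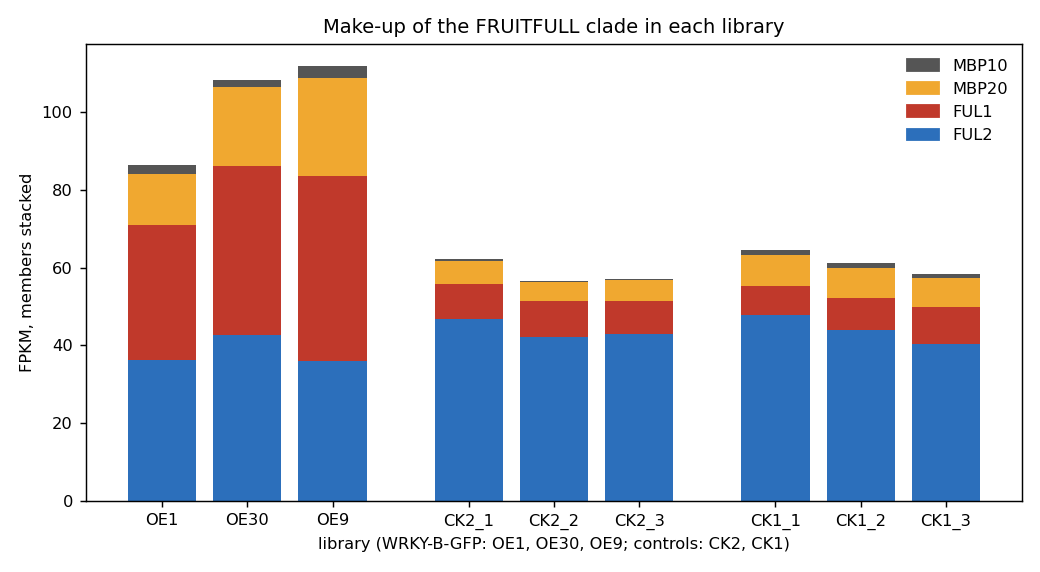
FPKM of FUL2, FUL1, MBP20 and MBP10 stacked for each library (linear axis from 0). The FUL2 part is of similar height in the 9 libraries, from 36.1 to 47.9 FPKM, while the FUL1 and MBP20 parts are taller in OE1, OE30 and OE9.

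A ratio of 2 genes within a library depends little on how the library was scaled. Here 0.1 FPKM was added to each gene before the ratio was taken. The log2 ratio of FUL1 over FUL2 was −0.06, 0.02 and 0.39 in OE1, OE30 and OE9, against −2.36, −2.20 and −2.30 in CK2 and −2.70, −2.41 and −2.07 in CK1. FUL1 thus stood near FUL2 in WRKY-B-GFP and far below it in both control sets. The difference was 2.40 against CK2 and 2.51 against CK1. For MBP20 over FUL2 the mean log2 ratio was −1.01 ± 0.48 in WRKY-B-GFP, −3.01 ± 0.05 in CK2 and −2.48 ± 0.07 in CK1 (SD, n = 3 each). Each of these 4 differences gave p = 0.1 in an exact two-sided permutation test, the smallest p that 3 libraries against 3 allow. After Benjamini-Hochberg adjustment over 4 ratios in 3 comparisons it was 0.171, so none can pass a threshold of 0.05 by this test. Between CK2 and CK1, MBP20 over FUL2 differed by −0.53 with the same p and adjusted p. There FUL1 over FUL2 differed by 0.10 (p = 0.7 in that exact test).

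The order of the genes by level, with the gene models of STM3 summed, also differed. In WRKY-B-GFP it ran FUL1, FUL2, STM3, MBP20, TM3 and MBP10, and the first 3 each overlapped the next over the 3 libraries. In CK2 it ran FUL2, FUL1, MBP20, STM3, TM3 and MBP10 with no overlap between neighbours. CK1 had the order of CK2, with overlaps of FUL1 with MBP20 and of TM3 with MBP10. By rank, STM3 (first gene model) lay above 84.0% of all gene models in WRKY-B-GFP by mean FPKM, above 47.7% in CK2 and above 46.0% in CK1, while FUL2 lay above 89.9%, 91.1% and 91.4% in the same order.

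The coefficient of variation of STM3 (first gene model) was 50.2% in WRKY-B-GFP, 10.5% in CK2 and 26.0% in CK1, and that of MBP20 was 31.2%, 8.50% and 3.83% in the same order. The spread was not larger in WRKY-B-GFP for every member, as MBP10 had 30.6% there and 38.4% in CK2, and TM3 22.4% there and 44.6% in CK1. WRKY-B itself was at 74.0, 93.5 and 205.7 FPKM in OE1, OE30 and OE9, against at most 0.40 FPKM in CK2 and 0.87 FPKM in CK1. OE9 had the highest level of FUL1, MBP20, MBP10 and TM3 as well, and OE30 that of STM3 and FUL2. Between OE9 and OE1 the ratio of levels was 2.78 for WRKY-B, 1.92 for MBP20, 1.58 for TM3, 1.55 for STM3, 1.45 for MBP10, 1.36 for FUL1 and 0.99 for FUL2. Between OE30 and OE1 it was 2.77 for STM3, 1.55 for MBP20, 1.35 for TM3 and 1.26 for WRKY-B. It was 1.25 for FUL1, 1.18 for FUL2 and 0.81 for MBP10, which was thus lower in OE30. With 3 libraries a correlation with the level of WRKY-B was not computed.

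Over the 9 libraries, STM3 (first gene model) was most like FUL1 among the members, with Pearson's r of log2(FPKM + 0.1) of 0.97, followed by TM3 with 0.96, and MBP10 was least like the members other than FUL2, with r of 0.65 to 0.87. FUL2 ran against all of them, with r of −0.72 to −0.50. These values are a description over 9 libraries that fall into 3 sets, and much of the table shares such a pattern. For STM3 (first gene model), 1001 of the 22893 other gene models averaging at least 1 FPKM had an r above 0.95, and for FUL1 1388, for TM3 759, for MBP20 672, for MBP10 601 and for the second gene model of STM3 72. FUL2 had none above 0.95. The gene models most like the members were Solyc09g092260.3 for FUL1 (r = 0.998), Solyc01g102460.3.1 for the first gene model of STM3 (r = 0.997), Solyc01g073755.1 for the second (r = 0.976), Solyc06g064880.3.1 for TM3 (r = 0.993), Solyc06g075690.3 for MBP20 (r = 0.997), Solyc02g072510.3 for MBP10 (r = 0.998) and Solyc07g005590.3 for FUL2 (r = 0.923). No table used here pairs these IDs with names. No member was among the 3 closest gene models of another.

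Neighbouring loci went both ways. The 2 loci on each side of every member in ID order held 28 other gene models at 21 loci. Against CK2, 25 were tested, with 6 called higher and 8 lower in WRKY-B-GFP, beside 25.8% and 23.2% of all gene models tested. Against CK1, 22 were tested, with 5 called higher and 3 lower, beside 17.5% and 21.8% of all gene models tested. Of those called lower against CK2, Solyc03g114820.3, Solyc02g065715.1, Solyc02g065740.3 and Solyc01g093980.3 lay below 0.5 FPKM in every WRKY-B-GFP library. They were tested only through CK2, and Solyc03g114820.3 only through CK1 in the other comparison. The counts of neighbours are therefore a description. Between STM3 and TM3 the table holds 1 locus, Solyc01g093960. Its gene model Solyc01g093960.3 was at 8.29 ± 1.02 FPKM in WRKY-B-GFP, 7.26 ± 0.318 FPKM in CK2 and 8.31 ± 0.542 FPKM in CK1 (SD, n = 3 each), a log2 fold change of 0.18 against CK2 (adjusted p = 0.251 from limma-trend) and −0.01 against CK1 (adjusted p = 0.956 from limma-trend). Its other gene model, Solyc01g093960.3.1, was at −0.37 and −0.28 and did not pass. On the other side of STM3, Solyc01g091950.3.1 passed against both control sets, at 1.09 against CK2 and 2.66 against CK1. The other gene model of that locus, Solyc01g091950.3, was at 0.02 against CK2 and passed at 1.04 against CK1. The locus after TM3, Solyc01g093970.4, fell by 1.67 (log2) against CK2 and by 1.65 against CK1, with 8.76 ± 2.39 FPKM in WRKY-B-GFP, 27.4 ± 0.641 FPKM in CK2 and 27.0 ± 0.574 FPKM in CK1 (SD, n = 3 each).

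**Figure D4:**
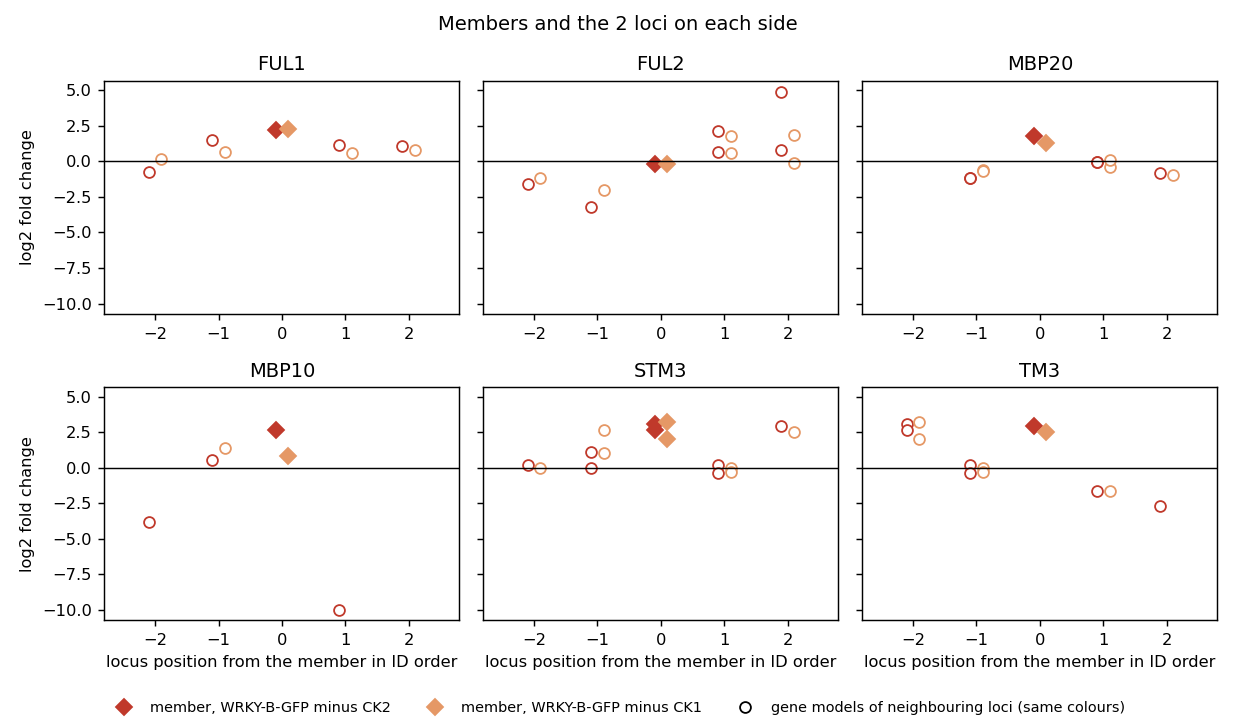
Log2 fold change of each member (diamonds) and of the tested gene models at the 2 loci on each side in ID order (open circles), for WRKY-B-GFP minus CK2 (red) and WRKY-B-GFP minus CK1 (orange). The locus between STM3 and TM3 lies near 0, and the locus after MBP10 lies at −9.99 against CK2. That locus was at 0 FPKM in all WRKY-B-GFP libraries and was tested only through CK2, so the size of its change rests on the added 0.1 FPKM.

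Around FUL1, the loci on each side also rose against CK2, with log2 fold changes of 1.49 for Solyc06g069420.3 and 1.12 for Solyc06g069440.3, and did not pass against CK1 (0.65 and 0.62). Beside FUL2, Solyc03g114840.3.1 was at 73.1, 101.2 and 65.3 FPKM in OE1, OE30 and OE9, against 16.6 to 18.4 FPKM in CK2 and 20.7 to 26.4 FPKM in CK1. It rose by 2.14 (log2) against CK2 and by 1.76 against CK1 (adjusted p = 9.07e-05 and 0.000403 from limma-trend), while the other gene model of that locus, Solyc03g114840.3, did not pass (log2 fold changes 0.66 and 0.58). One locus further on, Solyc03g114850.3.1 was higher, at 4.90 against CK2 and 1.82 against CK1, while Solyc03g114850.3 did not pass. On the other side of FUL2, Solyc03g114810.3 was lower, at −1.56 against CK2 and −1.16 against CK1. Solyc03g114820.3 on that side was also called lower against both, but was tested only through the control sets. The locus before MBP20, Solyc02g089200, went the other way from MBP20. Its 2 gene models fell by 1.17 and 1.14 (log2) against CK2, and against CK1 they were at −0.59 and −0.66, below the 2-fold threshold. RefSeq (SLM_r2.1) lists the MADS-box genes MADS1 beside FUL2 and TM29 beside MBP20, but no table used here pairs those names with IDs of the file. MBP10 has as its next locus Solyc02g065740.3, which was at 101.5 ± 2.90 FPKM in CK2 (SD, n = 3), the set in which MBP10 was lowest. In WRKY-B-GFP that neighbour was at 0 FPKM in all 3 libraries, and in CK1 at 0.25 to 0.50 FPKM.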

How the data were processed

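RNA-Seq libraries were analysed for WRKY-B-GFP (OE1, OE30, OE9), CK2 and CK1, 3 each. A sample of WRKY-B-GFP plants is named OE_9 in the study's supplement, on which the OE libraries were assigned. The authors deposited FPKM per gene model, rounded to 2 decimals. The authors' processing notes name RSEM 1.2.12, DESeq2 1.4.5, HISAT2 2.0.4 and Bowtie2 2.2.5, with no role or order. The file's own fold changes, p-values and q-values of the authors' comparisons were not used. Read totals are not given. In gene models at 0 in 6 or more libraries and at 0.05 FPKM or more in both libraries, the median log2 FPKM ratio to CK1_1 was 0.00 to 0.04. Such ratios of scaled values do not measure read totals, so relative depth is not known. FPKM summed to 615715 to 684351 in WRKY-B-GFP, 743707 to 769380 in CK2 and 749973 to 759157 in CK1.

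Differences were tested with limma-trend (limma 3.58.1, R 4.3.3) on log2(FPKM + 0.1). A gene model entered when 3 or more libraries of the 2 sets compared reached 0.5 FPKM, with Benjamini-Hochberg adjustment over all gene models tested (24905, 24448 and 25268 for WRKY-B-GFP against CK2, WRKY-B-GFP against CK1 and CK2 against CK1). The test was tried on simulated data. A difference of log means is a fold change that the added 0.1 understates at low values. Ratios and shares used exact permutation tests. Members, lists and tests were chosen with earlier results of these data known. Named genes were the members, 2 loci on each side, WRKY-B and the closest gene models by r. The listed flowering, SEPALLATA, floral organ and axillary bud genes were not used, since none of 41476 RefSeq genes (SLM_r2.1) carries an ID of the file, so the labelled tissue was not checked against markers. RefSeq holds 4 of the 6 members by symbol. Figures used matplotlib 3.10.9 in Python 3.11.15.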

Additional observations from a re-analysis of the deposited data

How the results depend on the processing

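The alternatives were log2(FPKM + 1), log2(FPKM + 0.01), no filter, a filter at 1 FPKM, all 9 libraries in 1 fit, median-ratio scaling, summed loci, leaving out each library and, between the control sets, a replicate block. Over these, the 7 member gene models gave 87 values against CK2 and 90 against CK1, all with the call reported, and 92 of 93 between the control sets. The exception was MBP10 between CK2 and CK1 at log2(FPKM + 1), at −0.82. FUL1 ranged from 1.89 to 2.33 against CK2 and the first gene model of STM3 from 2.73 to 3.44. MBP10 could not be tested against CK2 without any 1 WRKY-B-GFP library, nor between the control sets without any 1 CK1 library, as it then reached 0.5 FPKM in only 2 libraries. The log2 ratio of MBP10 over MBP20, WRKY-B-GFP minus CK2, was 0.84 and turned to −0.28 at log2(FPKM + 1), and that of CK2 minus CK1, −1.30, moved to −0.36 at log2(FPKM + 1) and to −1.59 at log2(FPKM + 0.01). Median-ratio scaling moved the median log2 fold change of all gene models from 0.17 to −0.15 against CK2 and from 0.01 to −0.12 against CK1. Between the control sets that median moved from −0.23 to −0.01. The calls higher and lower became 4627 and 6989, 3573 and 5924, and 3862 and 2610, in the same order. Leaving out 1 CK2 library put 64.4% to 64.9% of the calls against CK2 higher instead of 52.7%, and 35.0% to 35.7% of those between CK2 and CK1 instead of 48.1%. The filter still asked for 3 libraries, so gene models at 0.5 FPKM or more only in CK2 could not enter those fits. Between the control sets, a fit with a replicate block called 6822 gene models instead of 6826, and no member's call changed. Same-numbered libraries did not deviate together (r of −0.04, −0.01 and −0.01), so the numbers were not taken as pairs. WRKY-B-GFP shares only 1 number with the control sets, so no paired analysis was possible there. Read totals are not known, so no counting error can be given for the low values of MBP10 in CK2.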
